A study of Camellia sinensis with 6 samples.

Results

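The unigenes of caffeine synthesis and its purine and methyl supply were followed in leaves of the tea plant (Camellia sinensis) cultivar ‘Huangjinya’, whose leaves are yellow in full light. A unigene is 1 sequence of the transcript assembly, and contigs of 1 cluster (names that share a CL number) are similar sequences that can be forms or fragments of 1 gene. Members were the unigenes whose best protein hit, in the Nr annotation column of the table, was named caffeine synthase or theobromine synthase, xanthosine methyltransferase, an enzyme of purine supply (IMP dehydrogenase, AMP deaminase, adenosine kinase, guanosine deaminase), an enzyme of methyl supply (S-adenosylmethionine synthetase, adenosylhomocysteinase) or an enzyme of breakdown (xanthine dehydrogenase, uricase). This rule found 53 of the 127252 unigenes, in 26 clusters, and 29 of them had a mean of at least 1 FPKM (fragment counts divided by unigene length and by the library total) over the 6 libraries. Of the 53, 3 were caffeine synthases, 28 belonged to purine supply, 21 to methyl supply and 1 to breakdown. No unigene carried the words theobromine, xanthosine, guanosine deaminase or uricase.

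Shaded leaves (Y+S, 3 libraries) came from plants under 1 layer of net that took away about 45% of the light, and sunlight leaves (Y, 3 libraries) from plants of the same field without a net. All plants were 2 years old, and the third leaf from the shoot tip was taken on day 10. Both groups were of this 1 cultivar, and what a net changes besides light cannot be told apart from light in this design. A whole leaf holds several cell types, and in such bulk RNA fewer cells of a type and less RNA per cell cannot be told apart.

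In the young tea leaf, caffeine is made from xanthosine, which is drawn from the purine nucleotides AMP and GMP, from newly made purines and from the adenosine that the methyl cycle releases. N-methyltransferases of the SABATH family (plant methyltransferases that also make methyl salicylate and methyl jasmonate) add methyl groups one at a time, theobromine being the last intermediate, and take each group from S-adenosylmethionine (SAM). Every transfer leaves S-adenosylhomocysteine, an inhibitor of methyltransferases, which adenosylhomocysteinase hydrolyses. Caffeine is lost by removal of its methyl groups to xanthine, which xanthine dehydrogenase oxidises to urate.

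The libraries held 18742989, 13661010 and 11193435 counted fragments in shaded leaves Y+S1, Y+S2 and Y+S3, against 12488215, 10780376 and 10022397 in sunlight leaves Y1, Y2 and Y3. At these depths 3 fragments, the limit that a count of 0 allows, corresponded to 0.160 to 0.299 CPM (counts divided by the library total, on the usual scale of that unit), which covers counting error only. Y+S3 and Y1 stood apart in the scaling, with TMM factors of 0.695 and 0.761, where those of the other 4 libraries were 1.08 to 1.29. The study left out these same libraries from its expression comparison, so each test was run over the other 4 libraries and again over all 6. Unigenes of at least 3000 nt took 4.77% of the fragments in Y+S3, against 9.26% and 9.41% in the other shaded libraries and 5.54% to 7.60% in sunlight leaves. Unigenes with a best hit in algae or oomycetes took 2.36% in Y+S3 and 0.225% to 0.664% in the other 5 libraries (a list made after values were seen). Transcripts of leaf photosynthesis made up 4.07% to 7.30% of the fragments in shaded leaves and 5.78% to 6.33% in sunlight leaves, and transcripts of flower organ identity genes 0.00258% to 0.00436% and 0.00238% to 0.00325%. None of the 61 photosynthetic unigenes was at 0 in all libraries. The 81 unigenes of dividing cells (mitotic cyclins and histones) took 0.204%, 0.429% and 0.452% in shaded leaves, against 0.864%, 0.425% and 0.351% in sunlight leaves, highest in Y1.

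No member was called different between shaded and sunlight leaves at an adjusted p of 0.05 (edgeR quasi-likelihood test, Benjamini-Hochberg over all unigenes tested). Over 4 libraries 0 of the 36 members tested were called, where 0.0529% of all 64281 unigenes tested were (0.0451% as higher and 0.00778% as lower in shaded leaves). Over 6 libraries 0 of 34 members and 0% of all 59300 unigenes tested were called. By this edgeR test 0% of all unigenes passed the stricter threshold of the study (a log2 change of at least 1 in size together with an adjusted p of at most 0.001) in either fit. The study used a different test, DESeq, and reported genes both higher and lower in shaded leaves at that threshold. DESeq2 called 1 member over 4 libraries and 1 over 6, the SAM synthetase Unigene33410 both times, where it called 0.82% and 0.467% of all unigenes. The 0 over 4 libraries rested on the libraries used: without Y+S2 9 SAM synthetases were called, where 9.55% of all unigenes then were, without Y+S1 2 were, with 5.03% of all unigenes, and without Y2 or Y3 0 were. At an unadjusted p under 0.05, 8 of the 36 members passed over 4 libraries and all 8 were higher in shaded leaves, where 14.9% of all unigenes passed, 7.23% as higher and 7.69% as lower. Over 6 libraries 9 of 34 passed, all higher, where 8.06% of all unigenes passed, 4.39% as higher and 3.67% as lower.

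The log2 fold change (shaded over sunlight) was above 0 in 31 of the 36 members over 4 libraries, with a median of 0.51, where 51.9% of all unigenes were above 0 and their median was 0.03. Over 6 libraries it was above 0 in 28 of 34, with a median of 0.69, where 52.6% of all unigenes were above 0 and their median was 0.04. In TMM-scaled CPM, 10 of 34 members had groups of 3 that did not overlap, all 10 higher in shaded leaves, where 14.0% of all unigenes had no overlap, 6.67% as higher and 7.28% as lower. Members are not independent of each other, since contigs of 1 cluster share sequence and a fragment was counted only where it aligned to 1 unigene. Members together took 0.469%, 0.523% and 0.396% of the fragments in shaded leaves and 0.187%, 0.332% and 0.288% in sunlight leaves. A few abundant members weigh most in this share, so it does not show how many members were higher. By role, the median log2 fold change over 4 and over 6 libraries was 0.55 and 0.69 in methylation, 0.80 and 1.07 in methyl supply, and 0.25 and 0.27 in purine supply, and the 1 breakdown member had 0.50 and 0.28. Differences between roles were not tested.

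**Figure D1:**
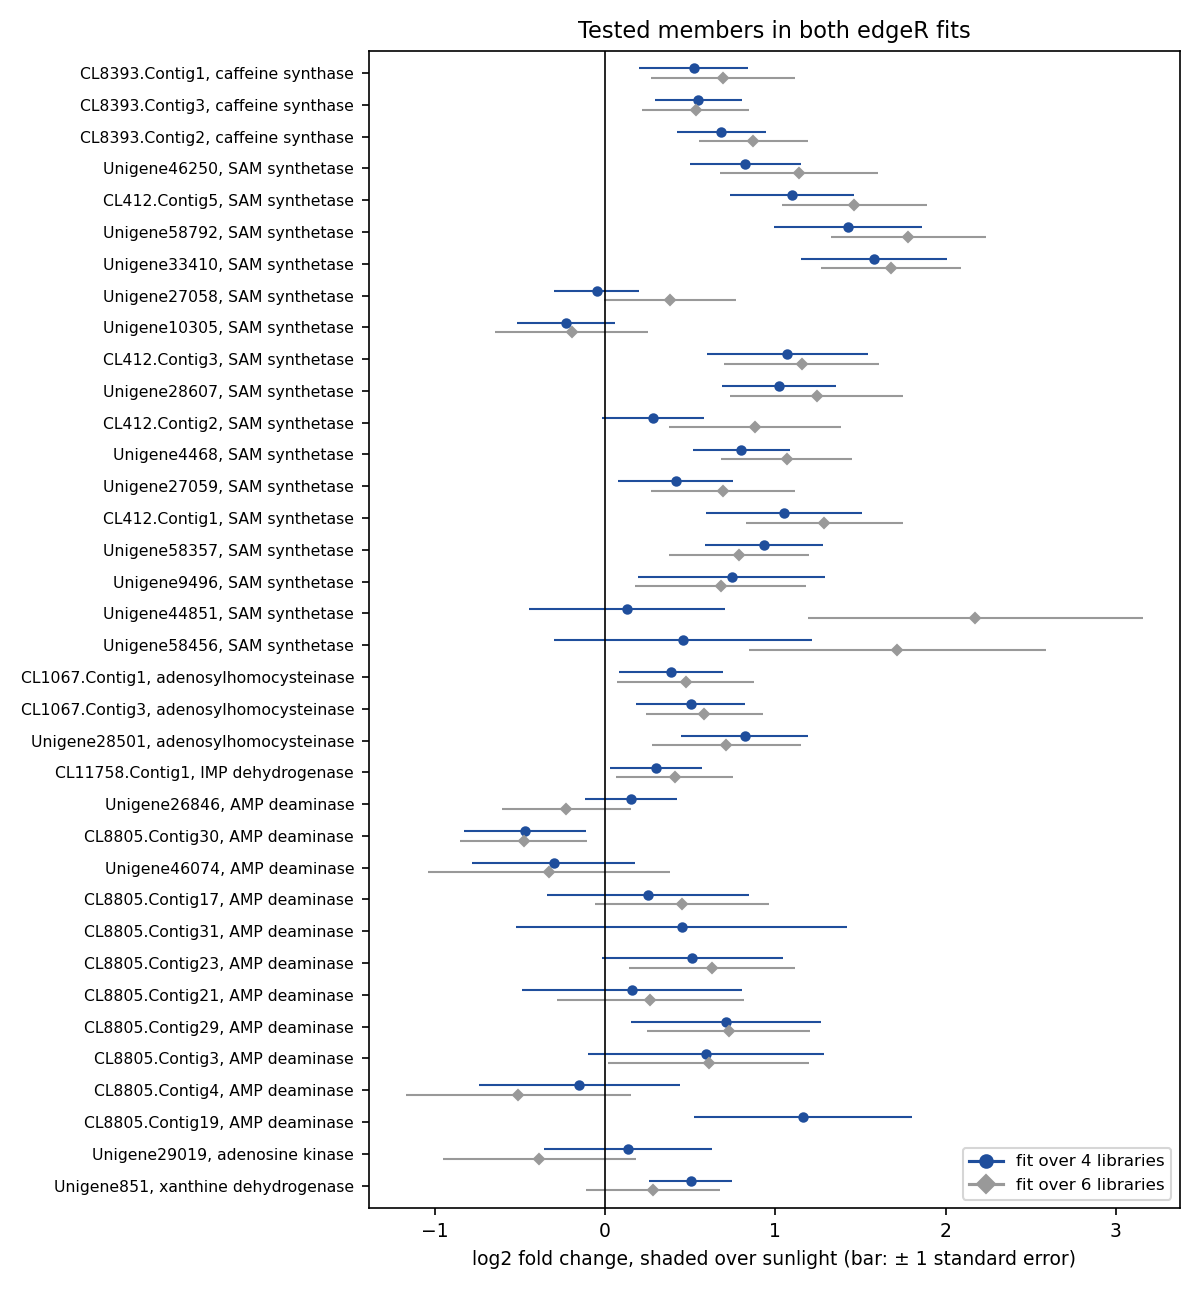
Log2 fold change, shaded over sunlight, of the members tested, grouped by enzyme class, in the fit over 4 libraries (blue circles) and the fit over 6 (grey diamonds), with bars of 1 SE to each side. SAM synthetase and caffeine synthase members lay mostly to the right of 0 and AMP deaminase members on both sides, and no member passed an adjusted p of 0.05.

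All 3 caffeine synthase unigenes belonged to cluster CL8393 and were of 1444 to 1677 nt. CL8393.Contig1, with the protein hit TCS1, the enzyme that adds the last methyl groups of caffeine in tea, was the most abundant of them and took 76.4% to 83.5% of the summed FPKM of the class. It stood at 376, 671 and 454 FPKM in shaded leaves and at 251, 347 and 346 FPKM in sunlight leaves. In FPKM the lowest shaded library was above the highest sunlight library, and Y+S2 was the highest of all. The TMM-scaled CPM, 577, 895 and 1122 in shaded and 563, 549 and 492 in sunlight leaves, did not overlap either. On that scale Y+S3 was the highest of all, and Y1 was the highest sunlight library. The means were 500.2 ± 153 FPKM in shaded and 315 ± 55.0 FPKM in sunlight leaves (SD, n = 3 each), a 1.59-fold difference, and the log2 fold change was 0.52 (SE 0.32) over 4 libraries, with an edgeR adjusted p of 0.491, and 0.69 (SE 0.42) over 6, with an adjusted p of 0.671. Without Y+S2 the value over 4 libraries was 0.16.

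CL8393.Contig3 matched the probable caffeine synthase called TCS2, a paralogue of TCS1 whose activity in the leaf is less well established. It was at 86.1, 127 and 58.9 FPKM in shaded leaves and at 44.7, 69.7 and 69.5 FPKM in sunlight leaves. On this scale Y+S3 lay inside the sunlight range, while the TMM-scaled counts of the groups did not overlap. Its log2 fold change was 0.55 (SE 0.26) over 4 libraries and 0.53 (SE 0.31) over 6, with edgeR adjusted p of 0.369 and 0.664. Relative to CL8393.Contig1, its FPKM was 22.9%, 18.9% and 13% in shaded leaves and 17.8%, 20.1% and 20.1% in sunlight leaves, so the ratio of these unigenes overlapped between the groups.

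The remaining contig, CL8393.Contig2, also had a caffeine synthase as best hit, but with a bit score of only 61.2, where those of CL8393.Contig1 and CL8393.Contig3 were 739 and 694. It was at 29.9, 47.2 and 30.6 FPKM in shaded leaves and at 14.3, 22.997 and 22.7 FPKM in sunlight leaves, again with no overlap. It had the largest fold change of the cluster, 0.68 (SE 0.26) over 4 libraries on the log2 scale with an unadjusted p of 0.0326 and an edgeR adjusted p of 0.290, and 0.87 (SE 0.32) over 6 with an adjusted p of 0.584. Summed over the 3 contigs, caffeine synthase was at 627 ± 191 FPKM in shaded leaves and 396 ± 74.3 FPKM in sunlight leaves (SD, n = 3 each), and none of the 3 passed the adjusted threshold. How unique alignments fell among contigs of 1 cluster is uncertain, and fragments that aligned to more than 1 contig were not counted.

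**Figure D2:**
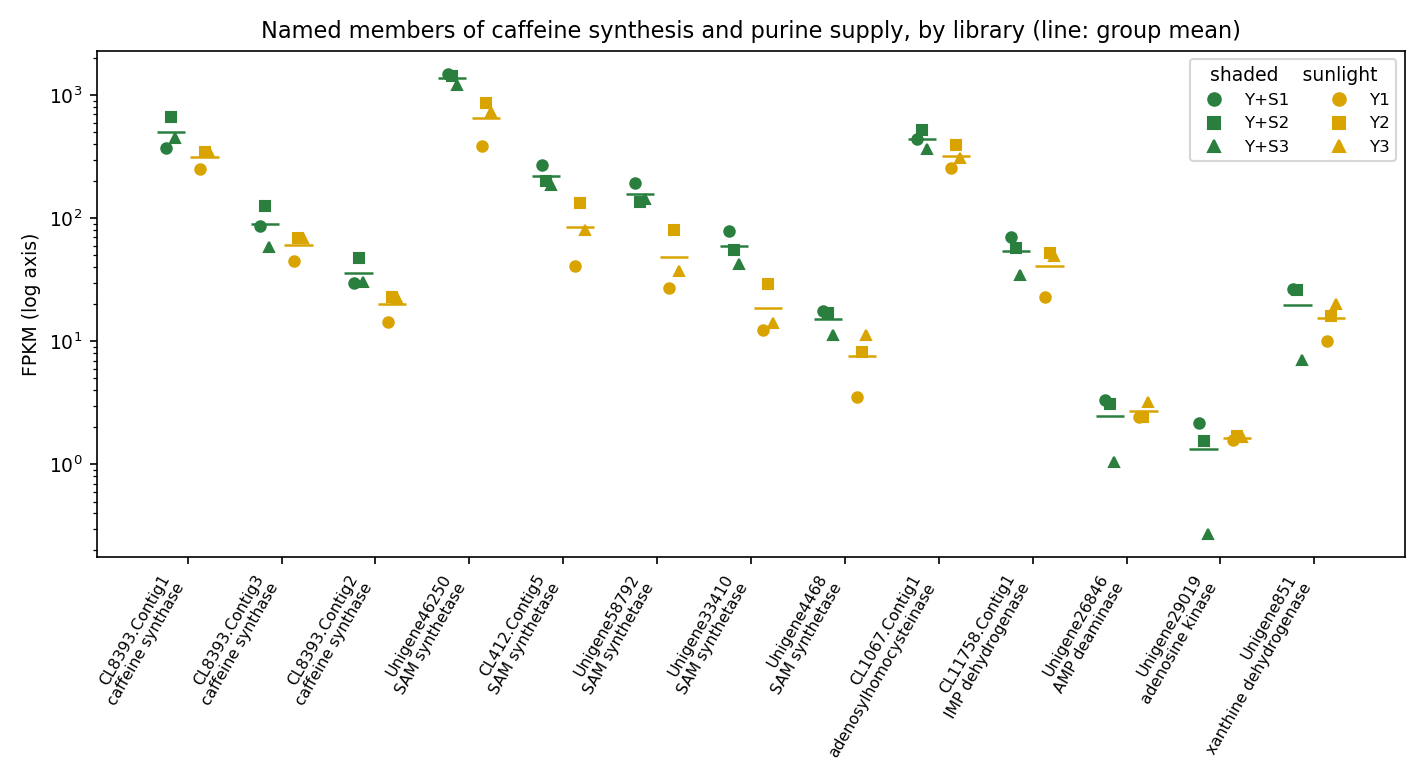
FPKM of the named members in each library, shaded libraries (green) left of sunlight libraries (gold), on a log axis, with a line at the mean of each group (n = 3). All 3 caffeine synthase contigs had their lowest value in Y1, and the SAM synthetase Unigene46250 was between 1216 and 1498 FPKM in shaded leaves and between 384 and 861 FPKM in sunlight leaves.

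SAM synthetase, which joins methionine and ATP into the methyl donor, was the most abundant class and the one with the widest separation between the groups. Its 17 unigenes, in 14 clusters and of 226 to 2321 nt, summed to 2247, 2016 and 1807 FPKM in shaded leaves and to 578.0, 1271 and 994 FPKM in sunlight leaves. The mean was 2024 ± 220 FPKM in shaded and 948 ± 349 FPKM in sunlight leaves (SD, n = 3 each), which is 2.14 times as much. Of the 16 unigenes tested, 14 had a log2 fold change above 0 over 4 libraries (median 0.81) and 15 over 6 libraries (median 1.15). An unadjusted p under 0.05 was reached by 7 over 4 libraries and by 8 over 6, all higher in shaded leaves, where 7.23% and 4.39% of all unigenes passed as higher. The groups did not overlap in 5 of the 16, all higher, where 6.67% of all unigenes did so. Sunlight library Y1 had the lowest sum, and it is not among the 4 libraries of the first fit.

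Unigene46250, of 1507 nt, was the main SAM synthetase, with 66.5% to 73.7% of the FPKM of its class. It was at 1498, 1425 and 1216 FPKM in shaded leaves and at 384, 861 and 733 FPKM in sunlight leaves. Every shaded library was above every sunlight library, with a mean of 1380 ± 147 FPKM in shaded and 659 ± 247 FPKM in sunlight leaves (SD, n = 3 each). The log2 fold change was 0.82 (SE 0.33) over 4 libraries with an unadjusted p of 0.0371 and an edgeR adjusted p of 0.303, and 1.14 (SE 0.46) over 6 with an adjusted p of 0.615.

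The largest fold change over 4 libraries among all members was that of the SAM synthetase Unigene33410, of 797 nt. It was at 79.3, 55.7 and 42.9 FPKM in shaded leaves and at 12.5, 29.2 and 14.1 FPKM in sunlight leaves. The groups did not overlap, and Y2 was the sunlight library nearest to the shaded ones. On the log2 scale the fold change was 1.58 (SE 0.43) over 4 libraries with an unadjusted p of 0.00685 and an edgeR adjusted p of 0.198, the smallest of any member, and 1.68 (SE 0.41) over 6 with an adjusted p of 0.512. The value over 4 libraries was 2.30 without Y2 and 1.05 without Y3, and stayed above 1 without either shaded library.

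Short SAM synthetase fragments gave similar values. CL412.Contig5, of 280 nt, was at 273, 203 and 188 FPKM in shaded leaves and at 41.2, 134 and 79.8 FPKM in sunlight leaves (log2 fold change 1.10, SE 0.36, edgeR adjusted p 0.242 over 4 libraries, and 1.46, SE 0.43, adjusted p 0.527 over 6). Unigene58792, of 226 nt, was at 194, 137 and 143 FPKM in shaded leaves and at 27.3, 80.4 and 37.5 FPKM in sunlight leaves (log2 fold change 1.43, SE 0.44, edgeR adjusted p 0.222 over 4 libraries, and 1.78, SE 0.46, adjusted p 0.512 over 6). In FPKM both were lowest in Y1, and they separated the groups in all 6 libraries in FPKM and in TMM-scaled CPM. On the CPM scale Unigene58792 was lowest in Y3, at 7.19 against 8.24 in Y1. Over 4 libraries Unigene58792 had log2 fold changes of 2.19 without Y2 and 0.88 without Y3. FPKM divides by a length that is small here, so their levels compare less well with those of the long unigenes than their fold changes do.

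The SAM synthetase Unigene4468, of 479 nt, was at 17.6, 17.0 and 11.2 FPKM in shaded leaves and at 3.51, 8.13 and 11.2 FPKM in sunlight leaves. Its groups touched in FPKM, where Y3 was marginally above Y+S3, and did not overlap in TMM-scaled counts. The log2 fold change was 0.80 (SE 0.29) over 4 libraries and 1.07 (SE 0.38) over 6, with edgeR adjusted p of 0.267 and 0.580.

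SAM synthetase unigenes did not all follow this pattern. Unigene27058, of 2321 nt, was at 41.4, 46.2 and 37.2 FPKM in shaded leaves and at 15.9, 46.8 and 40.1 FPKM in sunlight leaves, with log2 fold changes of −0.05 over 4 libraries and 0.38 over 6. Unigene10305 had a bit score of only 58.5 to its best hit, where Unigene27058 had 739. It was at 25.5, 37.3 and 36.1 FPKM in shaded leaves and at 43.8, 39.4 and 30.4 FPKM in sunlight leaves, with log2 fold changes of −0.23 and −0.20. In both, the groups overlapped. The other contigs of cluster CL412 were at 9.35 to 27.2 FPKM in shaded leaves and at 4.28 to 13.6 FPKM in sunlight leaves, with log2 fold changes over 4 libraries of 1.05 for CL412.Contig1, 0.28 for CL412.Contig2 and 1.07 for CL412.Contig3. These 5 unigenes were described after their values were seen.

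A pair of SAM synthetase unigenes with best hits outside the flowering plants was high in Y+S3. Unigene44851, with a best hit in the red alga Galdieria, was at 1.73, 6.90 and 21.4 FPKM in shaded leaves and at 1.43, 4.18 and 3.03 FPKM in sunlight leaves. Unigene58456, with a best hit in Pinus, was at 0.821, 4.50 and 7.39 FPKM in shaded leaves and at 0.924, 1.43 and 2.11 FPKM in sunlight leaves. Y+S3 was also the library with the largest share of fragments on unigenes hitting algae or oomycetes, 2.36%, and the part of that in these values was not tested. Their log2 fold changes were 2.18 and 1.72 over 6 libraries but 0.13 and 0.46 over the 4 libraries without Y+S3 and Y1. The 1 SAM synthetase not tested, Unigene54325, had 13 and 8 fragments in Y+S1 and Y+S2 and 0 in the other 4 libraries.

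**Figure D3:**
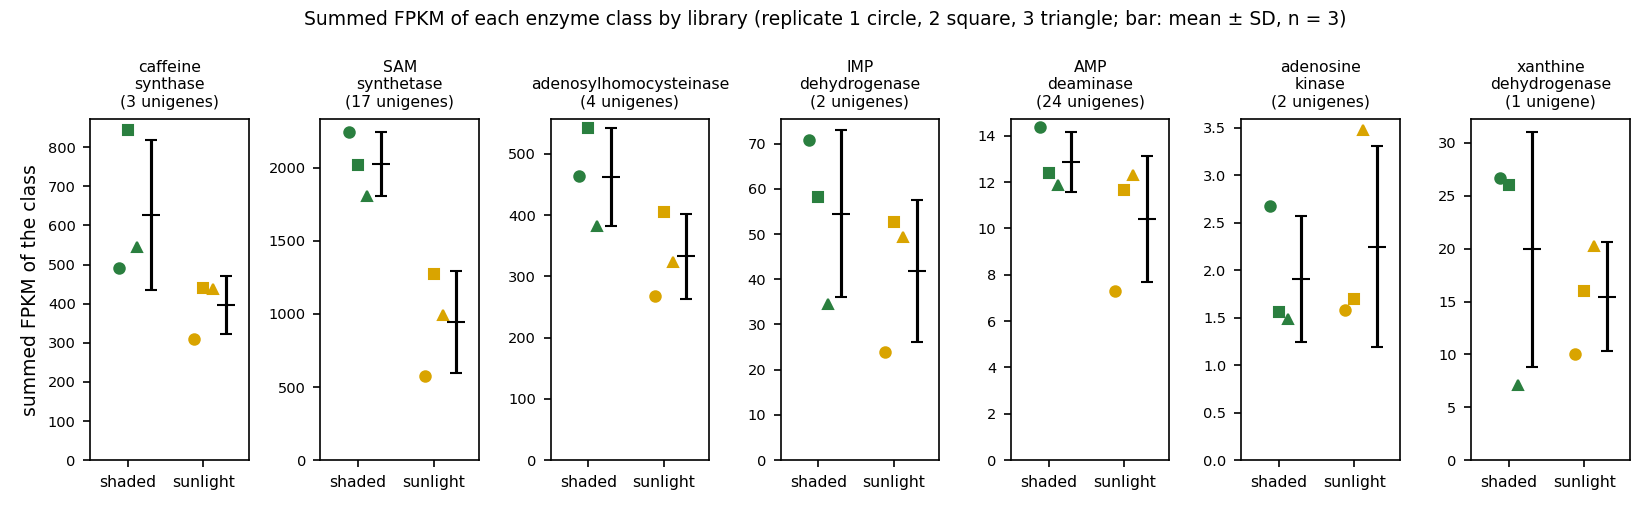
Summed FPKM of the unigenes of each enzyme class by library, shaded left of sunlight, with the mean and SD (n = 3 each) as bars and an axis from 0 in each panel. Only the caffeine synthase and SAM synthetase sums had groups that did not overlap.

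Adenosylhomocysteinase, which removes the product that inhibits methyltransferases, had 4 unigenes, and CL1067.Contig1, of 2017 nt, held 94.6% to 96.8% of their FPKM. CL1067.Contig1 was at 438, 520 and 365 FPKM in shaded leaves and at 257, 392 and 308 FPKM in sunlight leaves. The groups overlapped in FPKM, since Y2 was above Y+S3, and not in TMM-scaled counts. The log2 fold change was 0.39 (SE 0.30) over 4 libraries and 0.47 (SE 0.40) over 6, with edgeR adjusted p of 0.597 and 0.764. Both other unigenes tested, CL1067.Contig3 and Unigene28501, were at 8.52 to 13.1 FPKM in shaded leaves and at 4.20 to 8.90 FPKM in sunlight leaves, with log2 fold changes of 0.50 and 0.82 over 4 libraries. Unigene67593 had 5 fragments in Y+S1 and 0 elsewhere.

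Within a library, the ratio of summed SAM synthetase to summed adenosylhomocysteinase FPKM does not depend on the scaling between libraries. It was 4.85, 3.72 and 4.73 in shaded leaves and 2.15, 3.14 and 3.07 in sunlight leaves, so the groups did not overlap. The ratio of summed SAM synthetase to summed caffeine synthase was 4.57, 2.39 and 3.32 in shaded leaves and 1.86, 2.89 and 2.27 in sunlight leaves, with overlap. These ratios were chosen with the class values known and carry no test.

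IMP dehydrogenase, which turns IMP into XMP on the way to xanthosine, had 2 unigenes of 1 cluster, and CL11758.Contig1 held 95.5% to 99.5% of their FPKM. CL11758.Contig1 was at 70.1, 57.8 and 34.4 FPKM in shaded leaves and at 22.8, 52.0 and 49.1 FPKM in sunlight leaves. Y+S3 lay inside the sunlight range, and Y1 was the lowest. Its log2 fold change was 0.30 (SE 0.27) over 4 libraries and 0.41 (SE 0.34) over 6, with edgeR adjusted p of 0.651 and 0.761. CL11758.Contig2, a contig of 829 nt at 1.06 FPKM or less in every library, was not tested.

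AMP deaminase, which converts AMP to IMP, had 24 unigenes, 21 of them contigs of cluster CL8805, but only 4 of the 24 reached a mean of 1 FPKM. Over 4 libraries 11 were tested, of which 8 had a log2 fold change above 0 (median 0.25), and over 6 libraries 9 were tested, of which 5 were above 0 (median 0.27). None of the unigenes found by this rule reached an unadjusted p under 0.05 in either fit, and none of the 9 separated the groups in TMM-scaled CPM. The most abundant, Unigene26846, was at 3.32, 3.09 and 1.04 FPKM in shaded leaves and at 2.45, 2.42 and 3.22 FPKM in sunlight leaves. Its log2 fold change was 0.15 (SE 0.27) over 4 libraries and −0.23 (SE 0.38) over 6, with edgeR adjusted p of 0.846 and 0.895. The class summed to 14.4, 12.4 and 11.9 FPKM in shaded leaves and to 7.29, 11.7 and 12.3 FPKM in sunlight leaves, and 6.55 FPKM of the Y+S3 sum came from Unigene60909, a fragment of 382 nt that had at most 1.725 FPKM in the other 5 libraries and was not tested. The contig CL8805.Contig19, described after its values were seen, had 21, 12 and 7 fragments in shaded leaves and 3, 6 and 3 in sunlight leaves and was tested over 4 libraries only, with a log2 fold change of 1.16 and an edgeR adjusted p of 0.441.

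Adenosine kinase, which returns adenosine from the methyl cycle to AMP, had 2 unigenes by this rule. Their bit scores were only 34.7 (Unigene29019) and 57.4 (Unigene79415), so their low levels need not be those of the enzyme. Unigene22768, a hypothetical protein by name and so outside the rule, carried the adenosine kinase ortholog of KEGG and had a mean of 44.0 FPKM (picked after values were seen). Unigene29019, of 658 nt, was at 2.19, 1.56 and 0.272 FPKM in shaded leaves, from 27, 14 and 2 fragments, and at 1.58, 1.69 and 1.67 FPKM in sunlight leaves, from 13, 12 and 11 fragments. Its log2 fold change was 0.13 (SE 0.50) over 4 libraries and −0.39 (SE 0.57) over 6, with edgeR adjusted p of 0.932 and 0.879. The other, Unigene79415, a fragment of 221 nt, was at 0 in 3 libraries and was not tested.

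In breakdown, the 1 member was the xanthine dehydrogenase Unigene851, the longest member at 4545 nt. It was at 26.7, 26.0 and 7.10 FPKM in shaded leaves and at 10.04, 16.0 and 20.3 FPKM in sunlight leaves. Y+S1 and Y+S2 were above every sunlight library and Y+S3 was the lowest of all 6. Its log2 fold change was 0.50 (SE 0.24) over 4 libraries with an edgeR adjusted p of 0.381, and 0.28 (SE 0.39) over 6 with an adjusted p of 0.871. Y+S3 was also the library with the smallest share of fragments on unigenes of at least 3000 nt, 4.77%, and the part of that in this value was not tested.

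The wider pathway was read from 6 lists of annotation words, which together named 267 unigenes outside the members. Over 4 libraries 179 of them were tested and 0 were called at an adjusted p of 0.05. At an unadjusted p under 0.05, 12 were higher and 4 lower in shaded leaves, where 7.23% and 7.69% of all unigenes were, and the median log2 fold change was 0.09. Over 6 libraries 168 were tested, 0 were called, and 10 were higher and 6 lower at an unadjusted p under 0.05, where 4.39% and 3.67% of all unigenes were. These shares of the lists lie near those of all unigenes or below them.

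Of the other SABATH methyltransferases, which use SAM to methylate carboxyl groups of hormones and scents, 6 of 6 were tested, with log2 fold changes of 0.00 to 1.69 over 4 libraries and a median of 1.08, and 3 of them reached an unadjusted p under 0.05, all higher, where 7.23% of all unigenes were. Unigene821, annotated as a salicylic acid carboxyl methyltransferase, was at 26.3, 20.99 and 23.7 FPKM in shaded leaves and at 4.79, 6.003 and 8.47 FPKM in sunlight leaves. The groups lay far apart, with a log2 fold change of 1.69 (SE 0.29) over 4 libraries and 1.97 over 6, yet the edgeR adjusted p was 0.116 and 0.485. CL12623.Contig2 was at 145, 188 and 260 FPKM in shaded leaves and at 79.4, 70.5 and 92.1 FPKM in sunlight leaves, with log2 fold changes of 0.98 and 1.40 and edgeR adjusted p of 0.185 and 0.582. The other contigs of its cluster, CL12623.Contig1 and CL12623.Contig3, had log2 fold changes of 0.00 and 0.09 over 4 libraries, and their groups overlapped. CL8930.Contig1, annotated as a jasmonate O-methyltransferase, was at 45.3, 22.1 and 13.51 FPKM in shaded leaves and at 11, 13.53 and 10.9 FPKM in sunlight leaves, with Y2 marginally above Y+S3, log2 fold changes of 1.44 over 4 libraries and 1.11 over 6, and edgeR adjusted p of 0.208 and 0.598. The 3 caffeine synthase contigs carried this same jasmonate O-methyltransferase ortholog in the KEGG column of the table, which places them in the SABATH family and does not separate caffeine synthases from carboxyl methyltransferases.

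In the methionine cycle, which rebuilds the methionine that SAM synthetase uses, 41 of 47 unigenes were tested over 4 libraries, with a median log2 fold change of 0.24. At an unadjusted p under 0.05, 4 were higher and 0 lower, where 7.23% and 7.69% of all unigenes were. Unigene7309, a methionine synthase, was at 262, 237 and 89.7 FPKM in shaded leaves and at 148, 151 and 162 FPKM in sunlight leaves, with Y+S3 below all others and log2 fold changes of 0.63 over 4 libraries and 0.23 over 6. The list took 0.197%, 0.176% and 0.0873% of the fragments in shaded leaves and 0.106%, 0.159% and 0.173% in sunlight leaves, so its groups overlapped. The SAM synthetase sums, whose groups did not overlap, were in FPKM, which is a different measure.

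For de novo purine synthesis, which builds IMP, 36 of 73 unigenes were tested over 4 libraries, with a median log2 fold change of 0.12. At an unadjusted p under 0.05, 1 was higher and 1 lower, where 7.23% and 7.69% of all unigenes were. The higher one, Unigene51829, annotated as ribose-phosphate pyrophosphokinase, the enzyme that makes the sugar phosphate on which purines are built, was at 63.3, 32.1 and 44.1 FPKM in shaded leaves and at 7.26, 18.7 and 14.2 FPKM in sunlight leaves. Its log2 fold change was 1.51 (SE 0.41) over 4 libraries and 1.91 over 6, with edgeR adjusted p of 0.198 and 0.512, and its groups did not overlap. For purine interconversion and salvage, 54 of 68 were tested, with a median of −0.08. At an unadjusted p under 0.05, 0 were higher and 1 lower, beside the same shares of all unigenes. Over 6 libraries 1 of the 52 tested did not overlap as higher in shaded leaves and 10 as lower, where 6.67% and 7.28% of all unigenes did, and the median was −0.21. Among them the adenylate kinase CL543.Contig1 was at 1.12, 1.14 and 0.898 FPKM in shaded leaves and at 1.90, 2.29 and 2.19 FPKM in sunlight leaves. This list had its median on the other side of 0 from that of the SAM synthetases.

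Purine transport, which includes permeases and nucleobase-ascorbate transporters, had 37 of 62 unigenes tested over 4 libraries, with a median log2 fold change of 0.17. At an unadjusted p under 0.05, 4 were higher and 2 lower, where 7.23% and 7.69% of all unigenes were. The nucleobase-ascorbate transporter Unigene33352 was at 2.30, 2.54 and 4.01 FPKM in shaded leaves and at 8.27, 8.16 and 6.42 FPKM in sunlight leaves, with log2 fold changes of −1.65 and −1.29 over 4 and 6 libraries and an edgeR adjusted p of 0.136 over 4. For breakdown after urate, 5 of 11 unigenes were tested, none reached an unadjusted p under 0.05, and the median was 0.01.

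**Figure D4:**
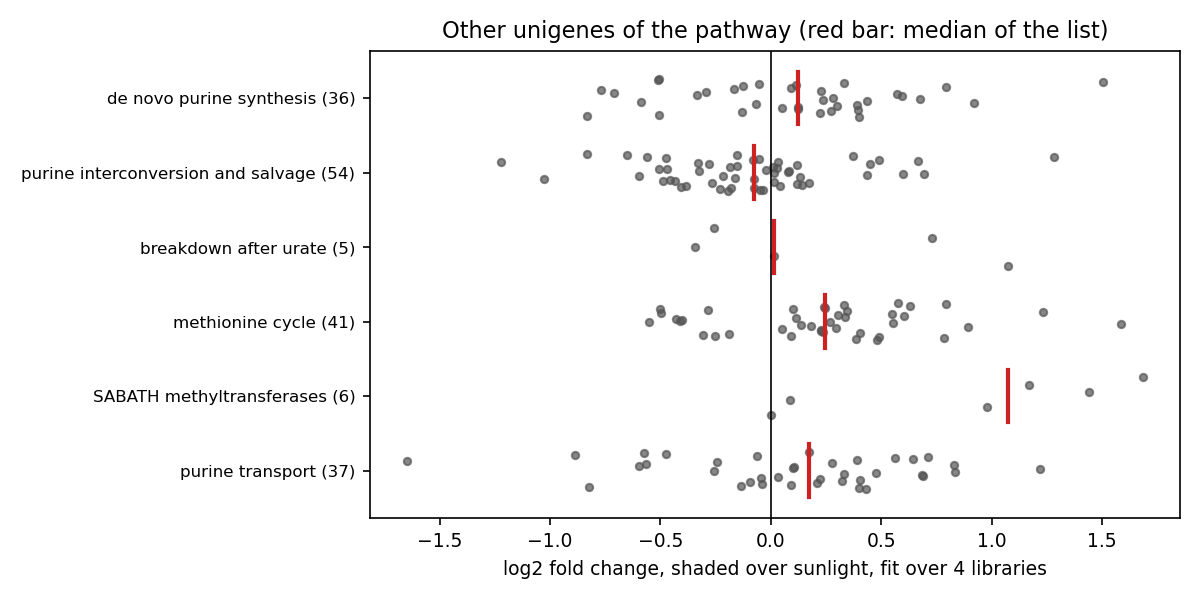
Log2 fold change, shaded over sunlight, in the fit over 4 libraries, of each tested unigene of the 6 pathway lists (points, their number in brackets), with a red bar at the median of each list. The SABATH list had a median of 1.08 and the interconversion and salvage list one of −0.08.

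Markers of dividing cells had log2 fold changes mostly on the other side of 0 from the members. Of 69 tested over 4 libraries, 54 were below 0 and 15 above 0, with a median of −0.45, where 51.9% of all unigenes were above 0. At an unadjusted p under 0.05, 8 were lower and 1 higher in shaded leaves, where 7.69% and 7.23% of all unigenes were. Their summed share was highest in Y1, the sunlight library in which the FPKM sums of caffeine synthase and SAM synthetase were lowest. In TMM-scaled CPM this did not hold for the main caffeine synthase. CL8393.Contig1 was there at 563 in Y1, against 549 and 492 in Y2 and Y3. The main SAM synthetase, Unigene46250, was still lowest in Y1, at 774 against 1225 and 937. The part of these cells in the values of the members was not tested.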

How the data were processed

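Leaves at the third position of shaded and sunlight ‘Huangjinya’ plants were sequenced on an Illumina platform. The authors assembled the reads with Trinity, TGICL and Phrap, and deposited 1 table with raw fragment counts (uniquely aligned fragments per unigene) and FPKM values, which divide those counts by unigene length and library total. Unigene length is given in nt in the deposited table. The deposited bit score is that of the best blastx hit in Nr. The aligner and counter are not given in the sources used here. FPKM recomputed from the counts differed by at most 5e-05. Counting by unique alignment splits the reads of similar contigs, and a de novo contig may be a fragment of a transcript. Columns were mapped to samples by the key deposited with the table. The description codes of the samples number some replicates differently, which leaves the groups as they are. The line of 1 unigene was blank and not used here. No sequence or genome position is given, since the assembly was not used here.

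Counts were filtered (filterByExpr), TMM-scaled and tested with glmQLFit and glmQLFTest of edgeR 4.0.16 in R 4.3.3, shaded over sunlight, with Benjamini-Hochberg adjustment over all unigenes tested. The standard error (SE) is the size of the log2 fold change divided by the root of F. The main fit used Y+S1, Y+S2, Y2 and Y3, as the study did, and a second fit used all 6 libraries. The biological coefficient of variation was 0.282 and 0.513. Groups were called not overlapping on TMM-scaled CPM over 6 libraries. Sums and ratios of FPKM carry no test. With 3 libraries a group, an exact permutation test of 1 value cannot go below 0.10, so none was used. The study's methods speak of leaves from different plants, but the labels do not say that each library is a separate plant, so p-values measure the spread between these libraries. The scripts were tested on simulated data.

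Members and lists were chosen with earlier results of these data known. Named members were, per enzyme class, the highest by mean FPKM (all 3 for caffeine synthase), any called member, and up to 12 more with an unadjusted p under 0.05 over 4 libraries, no overlap over 6 and the same sign in both fits. Others are described after their values were seen. Alternatives were DESeq2 1.42.0, a likelihood ratio test, RLE factors, no filter, limma 3.58.1 on log2(FPKM + 0.5) and log2(FPKM + 0.1), clusters summed, unigenes of at least 500 nt, 1 contig per cluster, a replicate block and leaving out each library.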

Additional observations from a re-analysis of the deposited data

How the results depend on the processing

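Over 4 libraries the count of members called was 0 and became 1 with DESeq2 and 1 with the likelihood ratio test, in both cases Unigene33410 (adjusted p 0.0228 and 0.0376), where these called 0.82% and 3.35% of all unigenes. Leaving out 1 library gave 0 to 9 called. Without Y+S2 the 9 were all SAM synthetases and 9.55% of all unigenes were called, and without Y+S1 there were 2 (Unigene33410 and Unigene58792) and 5.03%. With 1 shaded library left, it is assumed to vary like the others. Without Y2 or Y3 the count was 0. Over 6 libraries DESeq2 called 1 (Unigene33410, adjusted p 0.0491) and 0.467% of all unigenes, and leaving out any library called 0. Leaving out 1 of the 4 libraries moved Unigene33410 between 1.05 and 2.30, Unigene58792 between 0.88 and 2.19, CL412.Contig5 between 0.67 and 1.62 and CL8393.Contig1 between 0.16 and 0.79. Of the named members, the sign turned only in Unigene26846 (−0.0199 to 0.29 over 4 libraries and −0.47 to 0.0019 over 6 when 1 library was left out) and Unigene29019 (−0.27 to 0.42 over 4), and the cause was not tested. Replicate numbers did not pair the samples (correlations of −0.373, 0.00912 and −0.475 for the same number). With the replicate block over 6 libraries 0 members were called and 3 had an unadjusted p under 0.05, against 9 without it. Of all unigenes, 8.06% had an unadjusted p under 0.05 without the block, and their share with it is not given here. Groups that did not overlap numbered 10 under TMM, 10 under RLE factors (9 higher, 1 lower), 13 of 34 in FPKM and 13 of 53 without a filter. Under TMM 14.0% of all unigenes had no overlap. The shares of all unigenes under the other settings are not given here, so a rise or fall between these counts cannot be read. For unigenes under about 1 FPKM, depth limits any statement.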

Other observations

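Membership by annotation words misses unigenes with other names. By the KEGG ortholog column, an alternative chosen after seeing the data, 80 unigenes fell into the same enzyme classes. Of these, 57 were tested over 4 libraries and 54 over 6, and 0 were called in either fit by edgeR. An unadjusted p under 0.05 was reached by 12 and 9, all higher in shaded leaves, where 7.23% and 4.39% of all unigenes were. AMP deaminase then had 41 unigenes. Over 4 libraries 23 were tested and 18 had a log2 fold change above 0 (median 0.51), where 51.9% of all unigenes were above 0. Of the 23, 4 reached an unadjusted p under 0.05, all higher, where 7.23% of all unigenes were. Over 6 libraries 0 of 20 reached it, and the median was 0.36. The FPKM of the 41 summed to 62.7, 54.7 and 65.5 in shaded leaves and to 32.5, 36.6 and 44.5 in sunlight leaves, without overlap. In Y+S3, 20.1 and 22.8 FPKM of that sum came from Unigene46430 (244 nt) and Unigene58599 (545 nt), the pair highest in that library. Without this pair the sums were 40.1, 37.4 and 22.6 in shaded leaves and 16.5, 28.6 and 30.6 in sunlight leaves, with overlap. The pair was picked by its Y+S3 value, which by itself lowers that sum. Unigene46430 was at 13.1, 10.8 and 20.1 FPKM in shaded leaves and at 7.22, 4.94 and 8.59 FPKM in sunlight leaves, without overlap. Adenosine kinase then had 6 unigenes, mostly the FPKM of Unigene22768, annotated as a hypothetical protein, and summed to 54.1, 51.3 and 47.3 in shaded leaves and to 37.1, 57.7 and 62.4 in sunlight leaves. IMP dehydrogenase had 4 unigenes and sums of 72.3, 62.2 and 61.9 in shaded leaves and 25.4, 55.6 and 51.5 in sunlight leaves, without overlap. In Y+S3, 15.1 and 12.1 FPKM of that sum came from Unigene57042 and Unigene9277, with best hits in Guillardia and Phytophthora. The Guillardia hit is named a guanosine monophosphate reductase, so the name and the ortholog of Unigene57042 differ.

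The unigenes most like CL8393.Contig1 were ranked by Pearson correlation of log2(FPKM + 0.5) over the 6 libraries, among 19383 unigenes with a mean of at least 5 FPKM. The 5 first were Unigene344 (r 0.986, no annotation), CL8440.Contig6 (0.975, caskin-1-like), CL8393.Contig2 (0.974, of its own cluster), Unigene57077 (0.972, unnamed protein) and Unigene2650 (0.969, membrane steroid-binding protein 2-like), and 25 had r of at least 0.95. All points share the 6 libraries and their depth. Unigene2650 was at 186, 221 and 202 FPKM in shaded leaves and at 143, 171 and 171 FPKM in sunlight leaves.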
